A study of Mus musculus with 9 samples.

Results

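Gene expression was compared between 6 of the 9 arrays of the series: 3 of fibroblasts in which the transcription factor HSF1 was targeted by an shRNA and 3 of fibroblasts that received a scrambled shRNA. The cells were immortalized mouse embryonic fibroblasts (MEFs) of an ICR background. In every group, the control included, they were infected with an adenovirus that expressed the hairpin, at 1e8 plaque-forming units per ml for 2 h, and kept for another 70 h in medium with 10% serum at 37 °C, so no group was heat-shocked. The other 3 arrays came from the same cells with RPA1 as the target, which is the large subunit of RPA, the complex that coats single-stranded DNA, and were used for the shared estimate of the spread and as a second knockdown to compare with. Each knockdown rested on 1 hairpin delivered transiently by the virus, with 1 scrambled hairpin as its control, and the hairpins' sequences are not given in the sources used here. The arrays were Affymetrix Mouse Gene 1.0 ST GeneChips. The question of the study was if gene expression is regulated by HSF1 bound to RPA. Of the 35557 rows of the array table, 21789 had 1 gene symbol, and after each gene was reduced to its brightest row (by the mean of all 9 arrays), 19938 genes were described.

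HSF1 is the transcription factor through which vertebrate cells answer heat and other damage to proteins. It forms trimers, binds arrays of the unit nGAAn called heat shock elements, and switches on genes of chaperones such as HSP70, HSP90, HSP110 and the small heat shock proteins. In unstressed cells most of it is kept inactive, but it is also known to act on basal transcription of some chaperone genes and of genes outside the heat shock response. Fibroblasts make and organise connective tissue, and they also release cytokines and chemokines.

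Hsf1 mRNA was not analysed here, and the efficiency of its knockdown was therefore not checked. Rpa1, the target of the other hairpin, read 11.40, 11.42 and 11.41 on the control arrays and 11.35, 11.33 and 11.30 on the HSF1 shRNA arrays, against 9.42, 9.34 and 9.40 on the RPA1 shRNA arrays, in log2 signal. Nothing in the labels tells if the arrays within a group stem from separate cultures, so the p-values measure only the spread between these samples. Of 10 fibroblast markers, Col1a1, Col1a2, Dcn and Vim lay above a log2 signal of 12 in the control, and Fap, at 6.15 ± 0.07 (SD, n = 3), was the dimmest. The summed linear signal of the 10 markers was 47916 to 48851 on the control arrays and 44447 to 45994 on the HSF1 shRNA arrays. The 7 markers of macrophages and other blood cells summed to 860 to 958 on the control and 1197 to 1208 on the HSF1 shRNA arrays and, in the same order, the 8 epithelial markers to 1826 to 1925 and 2161 to 2198, the 6 neural markers to 3279 to 3590 and 4240 to 4426, and the 7 muscle markers to 1601 to 1695 and 1888 to 1947. The sums of 6 endothelial and 5 adipocyte markers were 860 to 893 and 563 to 577 on the control arrays and 929 to 967 and 594 to 622 on the HSF1 shRNA arrays. Of these marker lists other than the fibroblast one, 8 of 39 genes were called higher and 0 lower, against 9.89% higher and 6.21% lower over all genes. The neural list held 3 of these higher calls among its 6 genes. Of the 10 fibroblast markers 1 was called higher and 3 lower, with a median difference of -0.14. Their lower count ranged from 1 to 5 with 1 array left out. Among the blood cell markers Ptprc, which marks leukocytes, stood at 5.97 ± 0.08 and 6.08 ± 0.05, and Adgre1, which marks macrophages, at 5.99 ± 0.12 and 6.06 ± 0.01. The calls among the 7 were Ly6g, a granulocyte marker (1.48 ± 0.17, limma adjusted p = 0.00058), and Csf1r, the receptor of macrophage colony-stimulating factor (0.27 ± 0.07, adjusted p = 0.032), and the median difference of the 7 was 0.25. The call of Csf1r was lost with quantile or median scaling and without control replicate 1, control replicate 2 or any 1 of the HSF1 shRNA arrays. Whether other cells had a part in the results below was not tested.

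With a Benjamini-Hochberg adjusted p under 0.05 in limma, 3210 of the 19938 genes (16.1%) were called, 1971 higher (9.89%) and 1239 lower (6.21%) with HSF1 shRNA. Differences are given as log2 signal, HSF1 shRNA minus control, ± the standard error from limma with 3 arrays a group, and "rose" and "fell" are used for called genes. Of the called genes 253 were at least 1.5-fold higher and 215 at least 1.5-fold lower. The 3 HSF1 shRNA arrays all lay above the 3 control arrays for 4773 genes (23.9%) and all below for 2776 (13.9%). With 3 arrays in each group the smallest p of an exact test is 0.1, so each call rests on the variance model of limma. Calls came mostly from genes with a clear signal: when genes were split into 5 equal bins by mean signal, 1.9% of the dimmest bin were called higher and 0.4% lower, and 17.0% and 11.2% of the brightest. The counts given per family below are to be read beside these shares. A count near them says nothing particular to that family. The median difference of the 3 HSF1 shRNA arrays from the control mean was 0.37, 0.30 and 0.32 over the genes called higher and -0.29, -0.38 and -0.43 over the genes called lower, so HSF1 shRNA replicate 1 stood nearest to the control among the lower genes and farthest among the higher genes. Over all genes that array was shifted by 0.06, and the other 2 by 0.02. Of the calls 61.4% were higher. After quantile, median or cyclic loess scaling of the tested genes this share was 52.0%, 48.1% and 49.4%, and without HSF1 shRNA replicate 1 it was 50.2% (1232 higher and 1223 lower), so the predominance of rises changed with the scaling and with 1 array left out. Higher and lower calls numbered 1214 and 809 without control replicate 1, 1407 and 756 without control replicate 2, and 1145 and 808 without control replicate 3. They numbered 1422 and 778 without HSF1 shRNA replicate 2, and 1335 and 706 without HSF1 shRNA replicate 3.

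**Figure D1:**
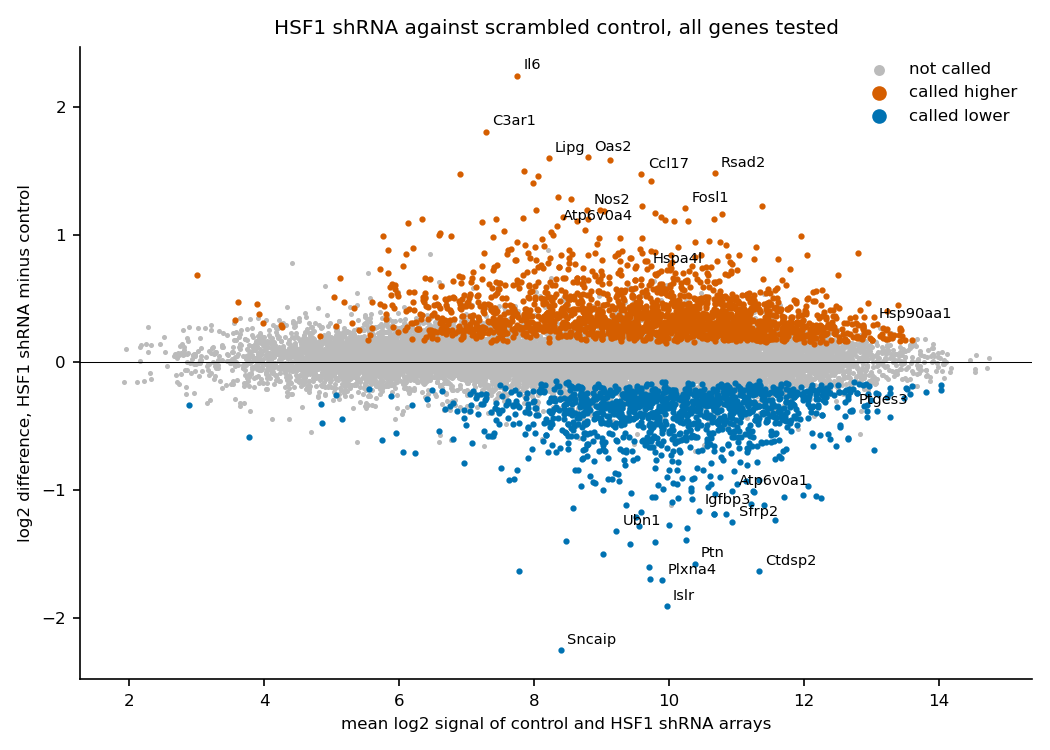
Each point is 1 of the 19938 genes; the x axis gives the mean log2 signal of the control and HSF1 shRNA groups and the y axis the log2 difference, HSF1 shRNA minus control. Genes called higher or lower by limma are coloured. The largest rise is that of Il6 at 2.25 and the largest fall that of Sncaip at -2.26.

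Over the 6 heat shock factor genes tested (Hsf1 not among them), Hsf2, a relative that can form mixed trimers with HSF1, was the only one called. Hsf2 read 10.05, 10.15 and 10.21 in the control and 10.44, 10.34 and 10.34 with HSF1 shRNA (0.23 ± 0.06, limma adjusted p = 0.019). Its HSF1 shRNA arrays lay above all controls, but the call was lost without control replicate 1, control replicate 2 or HSF1 shRNA replicate 1. Hsf4, which serves mainly the eye lens, stood at -0.01 ± 0.11 (adjusted p = 0.98).

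Among 13 genes of the HSP70 and HSP110 chaperones and their direct partners, 5 were called higher and 1 lower, with a median log2 difference of 0.19 against 0.04 over all genes. Hspa4l, an HSP110 relative that exchanges the nucleotide of HSP70, read 9.23, 9.32 and 9.37 in the control and 10.03, 9.98 and 10.11 with HSF1 shRNA. All its HSF1 shRNA arrays were higher than any control array, and the difference was 0.73 ± 0.15 (limma adjusted p = 0.011). Hspbp1, a second exchange factor, rose by 0.27 ± 0.05 (adjusted p = 0.005). Hsph1, which encodes HSP110 itself, rose from 10.40, 10.37 and 10.23 to 10.64, 10.60 and 10.81 (0.35 ± 0.10, adjusted p = 0.049). That call sat at the threshold and was lost in each of the 6 fits without 1 of the compared arrays. The ER-linked Hspa13 (0.22 ± 0.05, adjusted p = 0.025) and the ribosome-bound Hspa14 (0.19 ± 0.05, adjusted p = 0.046) rose, and Hspa12b, a distant relative, fell by 0.22 ± 0.07 (adjusted p = 0.047). The call of Hspa14 was also lost without any 1 of the 6 compared arrays, after quantile, median or loess scaling and with the replicate block. That of Hspa13 was lost without any 1 of the control arrays, HSF1 shRNA replicate 1 or 2 and with the replicate block. The constitutive HSP70 gene Hspa8 read 14.09, 14.07 and 14.11 in the control and 14.01, 14.02 and 14.03 with HSF1 shRNA, among the brightest of all genes, and differed by -0.07 ± 0.04 (adjusted p = 0.34). The stress-inducible Hspa1a read 9.09, 8.95 and 9.04 in the control and 9.20, 8.98 and 9.09 with HSF1 shRNA, so its groups overlapped (0.06 ± 0.10, adjusted p = 0.72). The count of higher members was 2 without any 1 of the control arrays, HSF1 shRNA replicate 1 or HSF1 shRNA replicate 2, 3 without HSF1 shRNA replicate 3, 2 with the replicate number as a block and 3 after quantile or loess scaling. The lower call was lost without control replicate 1, control replicate 2, any HSF1 shRNA array or RPA1 shRNA replicate 1.

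Of 16 genes of HSP90 and its co-chaperones 3 were higher and 1 lower. The row kept for Hsp90aa1, the inducible cytosolic HSP90, read 12.87, 12.86 and 12.88 in the control and 13.13, 13.13 and 13.24 with HSF1 shRNA, without overlap, a rise of 0.30 ± 0.05 (limma adjusted p = 0.0043). Its row number falls among those of chromosome 11 genes such as Nos2, while Hsp90aa1 lies on chromosome 12. The row may therefore read a copy of the gene, which was not tested. The row kept for Ptges3, which encodes the co-chaperone p23, moved the opposite way to that of Hsp90aa1, from 12.95, 12.83 and 12.93 to 12.50, 12.50 and 12.59 (-0.38 ± 0.06, adjusted p = 0.0038). Its row number falls among those of chromosome 4 genes such as Bag1, while Ptges3 lies on chromosome 10. This row too may read a copy of the gene, which was not tested. The immunophilin gene Fkbp5 rose by 0.26 ± 0.07 (adjusted p = 0.024), a call lost without any 1 of the control arrays or HSF1 shRNA replicate 1 or 3, and the HSP90 activator gene Ahsa1 by 0.23 ± 0.05 (adjusted p = 0.018). The higher count was 1 without control replicate 3 or HSF1 shRNA replicate 1 and 5 with array weights.

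None of 9 small heat shock protein genes was called by limma. Hspb1 (HSP25) read 12.27, 12.05 and 12.11 in the control and 12.01, 11.66 and 11.98 with HSF1 shRNA, so all HSF1 shRNA arrays were lower than the controls by a small margin (-0.26 ± 0.12, adjusted p = 0.17). Cryab, the alpha-B crystallin gene, lay the other way, at 0.23 ± 0.08 (adjusted p = 0.076). Without RPA1 shRNA replicate 1 or replicate 3, 1 and 2 members were called higher, and with only the 6 arrays compared 2. Of 6 BAG domain genes, whose products release clients from HSP70, Bag1 rose from 10.30, 10.36 and 10.28 to 10.88, 10.75 and 10.78 (0.49 ± 0.05, adjusted p = 0.00044), and Bag3, a textbook HSF1 target, stood at 0.17 ± 0.09 (adjusted p = 0.24). A second BAG member was called higher without RPA1 shRNA replicate 2, with array weights and with only the 6 arrays compared.

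The 43 J-domain co-chaperones, which bring clients to HSP70, gave 12 higher and 2 lower calls. The 12 were Dnaja2, Dnajb11, Dnajc2, Dnajc3, Dnajc5, Dnajc11, Dnajc12, Dnajc13, Dnajc15, Dnajc24, Dnajc25 and Dnajc27, with differences from 0.20 (Dnaja2) to 0.59 (Dnajc15). Dnajc3, an ER-resident inhibitor of stress kinases, rose by 0.48 ± 0.05 (limma adjusted p = 0.00041), and Dnajb9, another ER member, fell from 9.99, 9.94 and 10.07 to 9.54, 9.43 and 9.38 (-0.55 ± 0.09, adjusted p = 0.0043). The mitochondrial Dnajc30 fell by 0.56 ± 0.11 (adjusted p = 0.0075). Dnajb1, the HSP40 partner of HSP70 and a classical HSF1 target, read 10.26, 10.44 and 10.29 in the control and 10.36, 10.36 and 10.28 with HSF1 shRNA, with a difference of 0.00 ± 0.09 (adjusted p = 1). The higher count was 5 without control replicate 1 or HSF1 shRNA replicate 3, 4 without control replicate 3, 7 and 6 without HSF1 shRNA replicate 1 and 2, and the lower count was 4 without RPA1 shRNA replicate 3 and 6 with array weights.

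Of 15 subunits of the TRiC chaperonin and prefoldin, which fold actin and tubulin, Pfdn4 (0.43 ± 0.08, limma adjusted p = 0.0084), Vbp1 (0.39 ± 0.05, adjusted p = 0.00085) and Pfdn1 (0.23 ± 0.07, adjusted p = 0.041) rose. All 3 are prefoldin subunits, and the call of Pfdn1 was lost without any 1 of the 6 compared arrays, without RPA1 shRNA replicate 2, after median scaling and with the replicate block. Of 15 mitochondrial chaperones and proteases, Grpel1, the exchange factor of mitochondrial HSP70, rose by 0.50 ± 0.08 (adjusted p = 0.0031), as did the protease subunit gene Spg7 (0.25 ± 0.07, adjusted p = 0.041). These calls were 13.3% of the family, against 16.1% of all genes. The call of Spg7 was lost without any 1 of the 6 compared arrays and with the replicate block, and 2 members were called lower without RPA1 shRNA replicate 3. Hspd1 and Hspe1, the chaperonin pair HSP60 and HSP10 that share 1 promoter region, stood at 0.12 ± 0.07 (adjusted p = 0.27) and -0.16 ± 0.07 (adjusted p = 0.13).

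**Figure D2:**
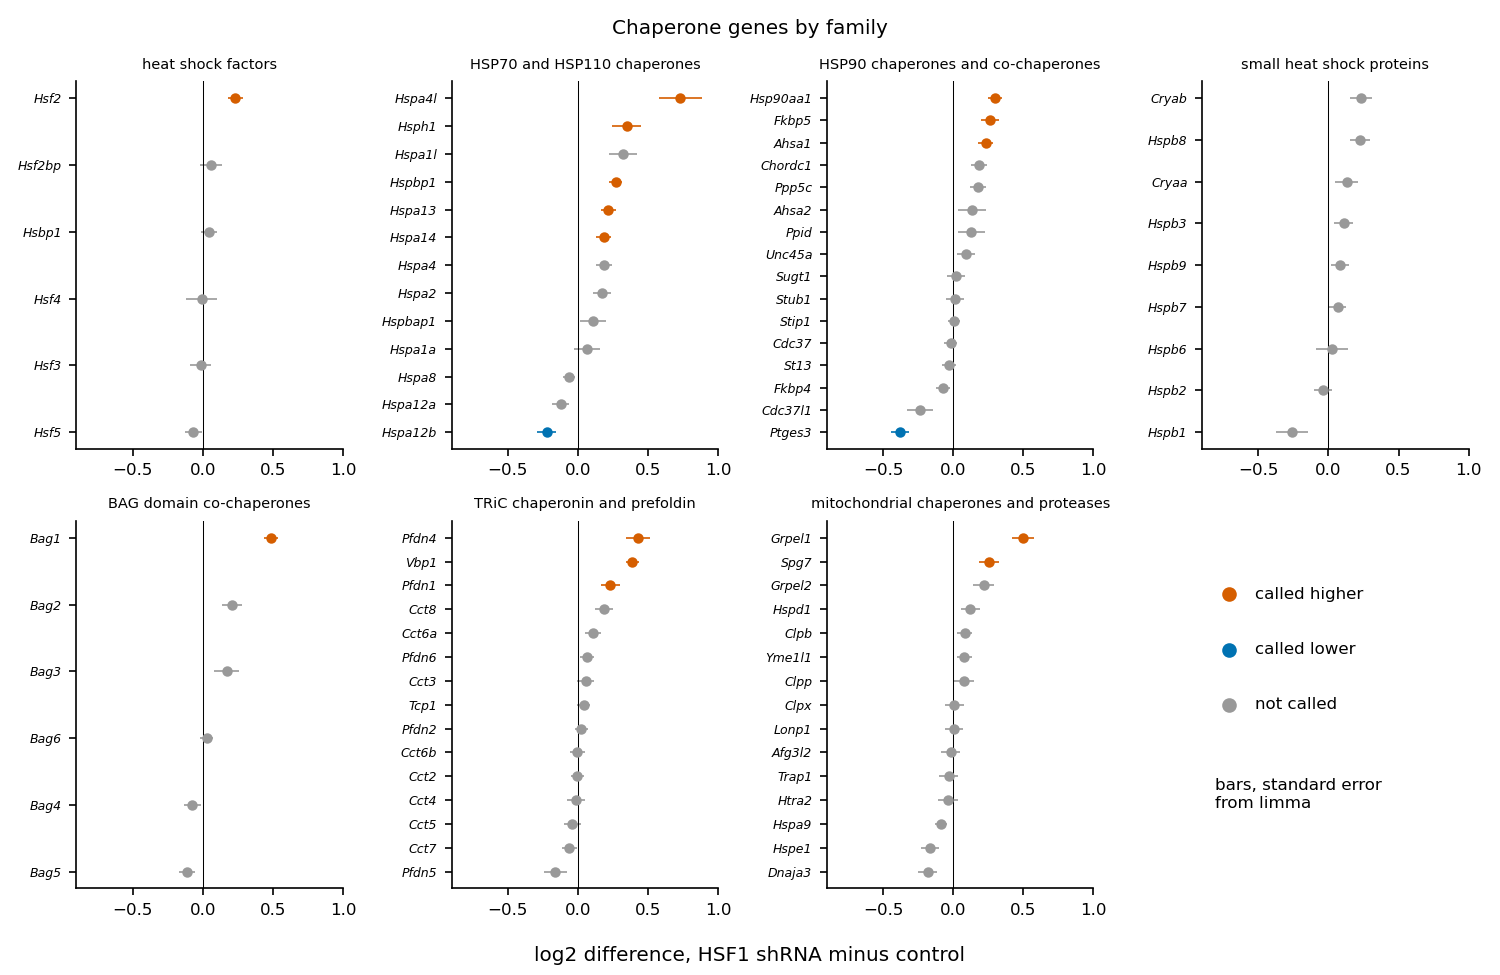
Points give the log2 difference (HSF1 shRNA minus control) of each tested gene of 7 chaperone families, 1 panel per family, with the standard error from limma; colour marks the genes called higher or lower. The J-domain genes are not drawn. In these panels differences lie between -0.38 (Ptges3, whose row may read a copy of the gene) and 0.73 (Hspa4l), and none of the small heat shock proteins is called.

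The promoters of these genes were read from RefSeq (build GRCm38.p6), as the window from 250 bases before to 50 bases after each gene's start; 15614 of the tested genes had such a window. A gene could have several windows, on average 1.23 over all genes, 1.26 for those called higher and 1.33 for those called lower, so the sets had unequal chances of a match. A heat shock element of inverted units (GAANNTTC or TTCNNGAA, both palindromic, so the same on both strands) was found in 15.4% of all promoters, in 238 of 1572 of the genes called higher (15.1%) and in 122 of 960 of those called lower (12.7%). Among the chaperone families above it was found in 2 of 20 members called higher (10%) and 22 of 80 not called higher (27.5%). In all 27 members were called higher, but Hsp90aa1, Hspa13, Dnajc2, Dnajc5, Dnajc11, Dnajc12 and Pfdn1 had no window and were not searched. The 2 members called higher with the element were Hsph1 and Dnajc27. The stretches that hold their elements, on the gene's own strand with the element in capitals, are shown because these are the members called higher whose window holds the element. They lie at chr5:149636326-149636405, minus strand, for Hsph1 and at chr12:4082325-4082404, plus strand, for Dnajc27.
Hsph1: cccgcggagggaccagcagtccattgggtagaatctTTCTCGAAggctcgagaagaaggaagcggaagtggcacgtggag
Dnajc27: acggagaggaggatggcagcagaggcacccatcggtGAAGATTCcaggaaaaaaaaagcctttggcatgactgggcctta
A longer element with 3 units was found in 88 promoters (0.564%), among them those of Hsph1, Chordc1, Dnajb6, Hspd1 and Hspe1 in the chaperone families. Of these only Hsph1 was called, and Chordc1, an HSP90 co-chaperone, stood at 0.19 ± 0.06 (limma adjusted p = 0.052). The stretch printed for Hsph1 does not hold the longer element, which was matched elsewhere in its promoter sequence. A match is a description of the letters and no match says only that they are not in this window.

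Genes of protein folding in the endoplasmic reticulum (ER) were called in larger part: of 22, 10 were called higher and 2 lower (54.5%), with a median of 0.17. Over all genes 16.1% were called, and in the brightest bin 17.0% higher and 11.2% lower. Some members, among them Dnajb9 and Dnajc3, were also counted among the J-domain genes above. Hyou1, the HSP110 of the ER, read 11.23, 11.23 and 11.18 in the control and 11.69, 11.64 and 11.67 with HSF1 shRNA (0.45 ± 0.05, limma adjusted p = 0.00035). The disulfide isomerase gene Pdia6 rose by 0.47 ± 0.05 (adjusted p = 0.00051) and Creld2 by 0.45 ± 0.05 (adjusted p = 0.00044). Hspa5, which encodes the central ER chaperone BiP, went from 12.87, 12.86 and 12.85 to 13.19, 13.25 and 13.21 (0.36 ± 0.04, adjusted p = 0.00079). The 2 lower members were Dnajb9 and Cnpy2 (-0.25 ± 0.06, adjusted p = 0.028), and 1 was left without any 1 of the control arrays or HSF1 shRNA replicate 2 or 3.

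Of 24 regulators and targets of the unfolded protein response and of its transcription factor ATF4, 7 were called lower and 2 higher (median -0.09). Vldlr fell by 0.68 ± 0.09 (limma adjusted p = 0.0013), the pseudokinase gene Trib3 by 0.51 ± 0.11 (adjusted p = 0.011) and Ddit3, which encodes the factor CHOP, by 0.32 ± 0.09 (adjusted p = 0.046). Atf3 rose by 0.41 ± 0.07 (adjusted p = 0.0031). The lower count was 2 or 3 without control replicate 1, 2 or 3, HSF1 shRNA replicate 2 or 3 or RPA1 shRNA replicate 1 and with the replicate block, 11 without RPA1 shRNA replicate 3 and after median or loess scaling, and 12 with array weights. The higher count fell to 1 in most of these fits.

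Of 22 amino acid transporter genes 8 were called lower and 1 higher. Slc7a5, the light chain of the main leucine transporter, read 13.36, 13.41 and 13.40 in the control and 12.83, 12.73 and 12.54 with HSF1 shRNA (-0.69 ± 0.07, limma adjusted p = 0.00036). The glycine transporter gene Slc6a9 fell by 1.05 ± 0.09 (adjusted p = 0.00016), the glutamate transporter gene Slc1a3 by 0.89 ± 0.13 (adjusted p = 0.0017) and Slc43a1 by 0.48 ± 0.06 (adjusted p = 0.0013). Slc3a1 was the higher member (0.42 ± 0.06, adjusted p = 0.0026), and 2 were higher without RPA1 shRNA replicate 3.

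Of 35 subunits of the 26S proteasome 11 were called higher and 0 lower, with a median of 0.19, and for 25 of the 35 all HSF1 shRNA arrays lay above the controls. All of the 4 with the largest rises belong to the regulatory particle: Psmd13 (0.47 ± 0.07, limma adjusted p = 0.0021), Psmd12 (0.41 ± 0.07, adjusted p = 0.0039), Psmc1 (0.32 ± 0.06, adjusted p = 0.0064) and Psmd1 (0.29 ± 0.06, adjusted p = 0.01). The count was 7 without control replicate 1, control replicate 3 or HSF1 shRNA replicate 3, 20 without RPA1 shRNA replicate 3 and 19 with array weights or with only the 6 arrays compared.

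The vacuolar ATPase, the proton pump that acidifies lysosomes, gave 8 higher calls and 1 lower among 21 subunit genes (median 0.22), and these counts moved by no more than 1.5 times in any fit with all genes. The membrane subunit a is encoded by several alternative genes, and 2 of them moved in opposite directions. Atp6v0a1 read 11.41, 11.49 and 11.45 in the control, 10.47, 10.43 and 10.42 with HSF1 shRNA and 11.62, 11.71 and 11.38 with RPA1 shRNA. It was the only subunit called lower (-1.01 ± 0.08, limma adjusted p = 9.6e-05). Atp6v0a4 read 7.77, 7.95 and 7.69 in the control, 8.93, 8.81 and 8.87 with HSF1 shRNA and 8.12, 8.03 and 8.30 with RPA1 shRNA (1.07 ± 0.09, adjusted p = 0.00012). Against RPA1 shRNA the differences were -1.13 ± 0.08 (adjusted p = 6.1e-05) for Atp6v0a1 and 0.72 ± 0.09 (adjusted p = 0.00053) for Atp6v0a4. Among the other subunits Atp6v1c1 (0.49 ± 0.07, adjusted p = 0.0017) and Atp6v0e (0.43 ± 0.06, adjusted p = 0.0011) rose.

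Many interferon-stimulated genes rose. Interferons act through receptors at the cell surface and switch on genes that detect or block viruses, many of which carry the interferon-stimulated response element. Oligoadenylate synthetase and IFIT genes gave 10 higher and 0 lower calls of 16 (median 0.64), sensors of foreign nucleic acid and their adaptors 9 and 0 of 17 (0.42), interferon-inducible GTPases 4 and 0 of 12 (0.26) and ubiquitin-like and other antiviral effectors 23 and 0 of 30 (0.54). These counts moved by no more than 1.5 times in any fit with all genes. The lists were chosen with the rise of such genes in these arrays already known and are not independent evidence of its direction.

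Oas2, which makes the oligoadenylates that activate RNase L, read 7.88, 7.94 and 8.16 in the control, 9.66, 9.63 and 9.50 with HSF1 shRNA and 9.72, 9.23 and 9.56 with RPA1 shRNA. Rsad2, the gene of the antiviral enzyme viperin, read 9.74, 9.89 and 10.19 in the control, 11.37, 11.44 and 11.46 with HSF1 shRNA and 11.52, 11.05 and 11.71 with RPA1 shRNA. In both genes every array of either knockdown was above every control array, and control replicate 3 was the highest control. The rises with HSF1 shRNA were 1.61 ± 0.12 (limma adjusted p = 8.9e-05) and 1.48 ± 0.16 (adjusted p = 0.00045). Ifi205, a sensor of the AIM2 type, rose from 7.04, 7.39 and 7.58 to 8.58, 8.97 and 8.82 (1.46 ± 0.24, adjusted p = 0.004). Ddx60, a helicase cofactor of RNA sensing, rose from 7.09, 7.47 and 7.77 to 8.82, 8.58 and 8.50 (1.19 ± 0.15, adjusted p = 0.0011). In all of Rsad2, Ifi205, Ddx60 and Oas2 control replicate 1 was the lowest and control replicate 3 the highest of the controls, while the highest HSF1 shRNA array differed between the genes.

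Other members with large rises were Usp18, which removes ISG15 from proteins (1.22 ± 0.17, limma adjusted p = 0.0016), Trim30a (1.18 ± 0.22, adjusted p = 0.0064), Cmpk2 (1.11 ± 0.16, adjusted p = 0.0021) and Rtp4 (1.11 ± 0.13, adjusted p = 0.00058). The nucleic acid sensor Zbp1 rose by 1.19 ± 0.11 (adjusted p = 0.00023) and the RNA sensor MDA5, encoded by Ifih1, by 0.89 ± 0.12 (adjusted p = 0.0013). Among the GTPases Gbp3 (0.97 ± 0.14, adjusted p = 0.0021), Gbp7 (0.95 ± 0.15, adjusted p = 0.0025), Irgm1 (0.81 ± 0.07, adjusted p = 0.00019) and Mx2 (0.80 ± 0.16, adjusted p = 0.008) rose. Mx2 is listed as a transcribed pseudogene in RefSeq. Mx1, at 0.21 ± 0.15 (adjusted p = 0.4), did not pass. The DNA sensor Cgas (0.08 ± 0.09, adjusted p = 0.63) and the adaptor Mavs (0.03 ± 0.07, adjusted p = 0.84) did not pass either.

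Upstream of these genes, 7 of 24 STAT and IRF factors and interferon receptors were higher and 2 lower. Stat2 rose from 10.44, 10.52 and 10.69 to 11.41, 11.37 and 11.18 (0.77 ± 0.09, limma adjusted p = 0.00064), Irf7 by 0.77 ± 0.15 (adjusted p = 0.0069), Irf9 by 0.51 ± 0.09 (adjusted p = 0.004) and the feedback inhibitor Socs1 by 0.31 ± 0.06 (adjusted p = 0.0067). Both lower members, Irf2 (-0.30 ± 0.08, adjusted p = 0.027) and Irf5 (-0.25 ± 0.07, adjusted p = 0.029), lost their calls without any 1 of the control arrays or HSF1 shRNA replicate 2 or 3. The interferon genes themselves were not called: 0 of 16 by limma, with a median of 0.02. Their median control signal was 6.96, and dim genes were seldom called: 1.9% of all genes in the dimmest bin and 5.1% in the next were higher. The missing calls therefore do not show that these genes were unchanged. Ifnb1, which encodes interferon beta, read 6.07, 6.09 and 6.05 in the control and 6.14, 6.24 and 5.89 with HSF1 shRNA, so the groups overlapped (0.02 ± 0.12, adjusted p = 0.94). A single interferon gene was called higher without control replicate 3 or HSF1 shRNA replicate 3, and 1 lower in several fits, among them those without RPA1 shRNA replicate 3 and with the replicate block. Of 25 genes of antigen presentation by MHC class I, 5 were higher and 0 lower, led by the immunoproteasome subunit gene Psmb10 (0.47 ± 0.07, adjusted p = 0.0017) and the peptide loading gene Tapbp (0.45 ± 0.06, adjusted p = 0.0015). That count was 3 without any 1 of the control arrays, 2 without HSF1 shRNA replicate 1 and 8 with only the 6 arrays compared.

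The interferon-stimulated response element, searched as GAAANNGAA on both strands, was found in 9.2% of all promoters, in 10.7% of those of the genes called higher and in 9.27% of those called lower. Among genes at least 1.5-fold higher it was in 38 of 187 (20.3%), and among genes at least 1.5-fold lower in 22 of 157 (14%). In the 4 interferon-inducible lists it was found in 20 of 35 members called higher (57.1%) and in 7 of 19 not called higher (36.8%), both above the share over all promoters. Whether the element had a part in the rises was not tested. Of the members called higher whose window holds the element before the start, those with the largest rises were taken. Trim30a, 1 of these, is not printed. The stretches of the other 5 are shown, on the gene's strand with each element in capitals, in either orientation. They lie at chr12:26456528-26456607, minus strand, for Rsad2, at chr1:174031846-174031925, minus strand, for Ifi205, at chr8:61928007-61928086, plus strand, for Ddx60, at chr19:34640745-34640824, minus strand, for Ifit1bl2 and at chr3:142559964-142560043, plus strand, for Gbp3.
Rsad2: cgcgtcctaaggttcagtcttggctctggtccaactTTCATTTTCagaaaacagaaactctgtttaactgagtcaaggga
Ifi205: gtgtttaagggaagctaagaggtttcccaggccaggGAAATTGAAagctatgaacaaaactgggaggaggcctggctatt
Ddx60: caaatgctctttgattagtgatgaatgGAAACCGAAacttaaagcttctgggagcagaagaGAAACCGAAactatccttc
Ifit1bl2: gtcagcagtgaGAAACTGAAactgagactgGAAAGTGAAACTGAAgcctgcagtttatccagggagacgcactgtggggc
Gbp3: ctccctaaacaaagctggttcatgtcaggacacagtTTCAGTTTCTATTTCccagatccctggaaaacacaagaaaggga
In Ddx60 the element occurs as a pair of separate copies, and in Ifit1bl2 and Gbp3 copies overlap. Ifit1bl2 rose from 5.61, 5.57 and 5.58 to 6.89, 6.60 and 6.54 and Gbp3 from 8.88, 9.20 and 9.28 to 10.08, 10.17 and 10.03, both without overlap. A heat shock element lay in the promoters of 12 of the 35 called members (34.3%) and in 3 of the 19 others (15.8%), against 15.4% of all promoters.

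Chemokine genes, whose products attract leukocytes, gave 14 higher and 1 lower call of 36, with a median of 0.15. Ccl17, a ligand of CCR4, read 8.87, 8.93 and 8.77 in the control, 10.40, 10.26 and 10.33 with HSF1 shRNA and 10.49, 10.36 and 10.23 with RPA1 shRNA, and rose by 1.47 ± 0.07 (limma adjusted p = 2.1e-05). Ccl20, a ligand of CCR6, read 7.74, 8.03 and 7.93 in the control, 9.22, 9.17 and 9.16 with HSF1 shRNA and 10.17, 10.32 and 9.67 with RPA1 shRNA. The HSF1 shRNA arrays of Ccl20 were all above the controls and all below the RPA1 shRNA arrays (1.28 ± 0.15 against control, adjusted p = 0.00057; -0.87 ± 0.15 against RPA1 shRNA, adjusted p = 0.0025). Ccl5 rose by 0.99 ± 0.16 (adjusted p = 0.0031), and the interferon-inducible Cxcl9, Cxcl10 and Cxcl11 rose by 0.92 ± 0.07, 0.86 ± 0.14 and 0.63 ± 0.12 (adjusted p = 6.8e-05, 0.0035 and 0.0075). Cxcl12, the constitutive stromal chemokine, went the other way, from 12.35, 12.20 and 12.14 to 11.30, 11.18 and 11.04 (-1.06 ± 0.12, adjusted p = 0.00057), and was the lower member. A second chemokine gene was called lower without HSF1 shRNA replicate 1, after the 3 scalings and with array weights.

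Il6, the gene of interleukin-6, had the largest rise of all genes. It read 6.32, 6.69 and 6.86 in the control, 8.97, 8.94 and 8.70 with HSF1 shRNA and 8.16, 7.58 and 9.21 with RPA1 shRNA, and rose 4.74-fold (2.25 ± 0.33, limma adjusted p = 0.0023). The HSF1 shRNA arrays were close together, while the RPA1 shRNA arrays spread from below to above them. Among the 45 interleukin and cytokine genes 7 were higher and 2 lower. Il15 (0.53 ± 0.11, adjusted p = 0.0084) and Csf2, the gene of GM-CSF (0.48 ± 0.10, adjusted p = 0.013), rose. Il1rn, which encodes the antagonist of interleukin-1, fell from 10.81, 10.96 and 10.87 to 9.87, 9.78 and 9.77 (-1.07 ± 0.16, adjusted p = 0.0025), and Csf1, the gene of M-CSF, fell by 0.33 ± 0.05 (adjusted p = 0.0034).

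In the TNF superfamily 9 of 38 genes were higher and 1 lower. The decoy receptor gene Tnfrsf23 read 8.97, 9.07 and 9.03 in the control and 10.46, 10.30 and 10.58 with HSF1 shRNA (1.42 ± 0.14, limma adjusted p = 0.00035), and its neighbour in the family Tnfrsf22 rose by 0.65 ± 0.12 (adjusted p = 0.0059). The ligand gene Tnfsf18 rose by 1.10 ± 0.14 (adjusted p = 0.00096). Tnfrsf1b, the gene of TNF receptor 2, fell from 9.92, 10.03 and 10.03 to 9.43, 9.28 and 9.40 (-0.62 ± 0.06, adjusted p = 0.00022). A second lower member appeared after loess scaling. Of 22 NF-kB subunits and feedback inhibitors 7 were higher and 1 lower, with Tnfaip3, an inhibitor that NF-kB induces, at 0.40 ± 0.05 (adjusted p = 0.00081) and the deubiquitinase gene Cyld at 0.40 ± 0.07 (adjusted p = 0.0037). The higher count was 3 without control replicate 1 or 3 and 4 without HSF1 shRNA replicate 1 or 3, and the call of the lower member, Birc2 (-0.33 ± 0.07, adjusted p = 0.011), was lost without control replicate 3.

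The kappa-B element, searched as GGNNTTTCC on both strands, was in 6.69% of all promoters, in 7.63% of those of genes called higher, in 69 of 960 of those of genes called lower (7.19%), in 21 of 187 of the genes at least 1.5-fold higher (11.2%) and in 10 of 157 of those at least 1.5-fold lower (6.37%). It is shown for Il6 (chr5:30013034-30013113, plus strand) and Ccl20 (chr1:83116650-83116729, plus strand), with the element in capitals, as 2 examples among the cytokine and chemokine genes called higher; the window of Cxcl1 (0.59 ± 0.08, limma adjusted p = 0.001) also holds it.
Il6: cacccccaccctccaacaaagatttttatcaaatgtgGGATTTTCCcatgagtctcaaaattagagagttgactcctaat
Ccl20: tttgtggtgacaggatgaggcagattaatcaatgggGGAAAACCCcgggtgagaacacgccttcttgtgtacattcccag

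Further rises among the 25 largest fell outside these families. C3ar1, the receptor for the complement fragment C3a, read 6.28, 6.41 and 6.47 in the control and 8.20, 8.11 and 8.28 with HSF1 shRNA (1.81 ± 0.15, limma adjusted p = 0.00012). Mmp13, which encodes a collagenase, read 7.31, 7.27 and 7.27 in the control and 8.76, 8.70 and 8.60 with HSF1 shRNA (1.40 ± 0.11, adjusted p = 0.00012). The 3 control arrays of Mmp13 lay close together, and all HSF1 shRNA arrays lay above them and above the RPA1 shRNA arrays (7.73, 8.05 and 8.28). Plaur, the receptor of urokinase, rose by 1.14 ± 0.16 (adjusted p = 0.0016), Uchl1, a deubiquitinase of neurons, by 1.17 ± 0.10 (adjusted p = 0.00012) and Lmcd1, a LIM domain gene, by 1.14 ± 0.08 (adjusted p = 6.8e-05). S100a4, a calcium-binding protein gene counted among the fibroblast markers, rose from 10.12, 10.27 and 10.23 to 11.45, 11.38 and 11.28 (1.16 ± 0.18, adjusted p = 0.0027). Ly6g, the granulocyte marker counted among the blood cell markers above, rose from 6.17, 6.25 and 6.06 to 7.56, 7.64 and 7.72 (1.48 ± 0.17, adjusted p = 0.00058), and its relative Ly6f by 1.12 ± 0.12 (adjusted p = 0.00044). Near-identical Ly6 genes could share signal on an array, so the identity of the Ly6 transcript is uncertain.

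**Figure D3:**
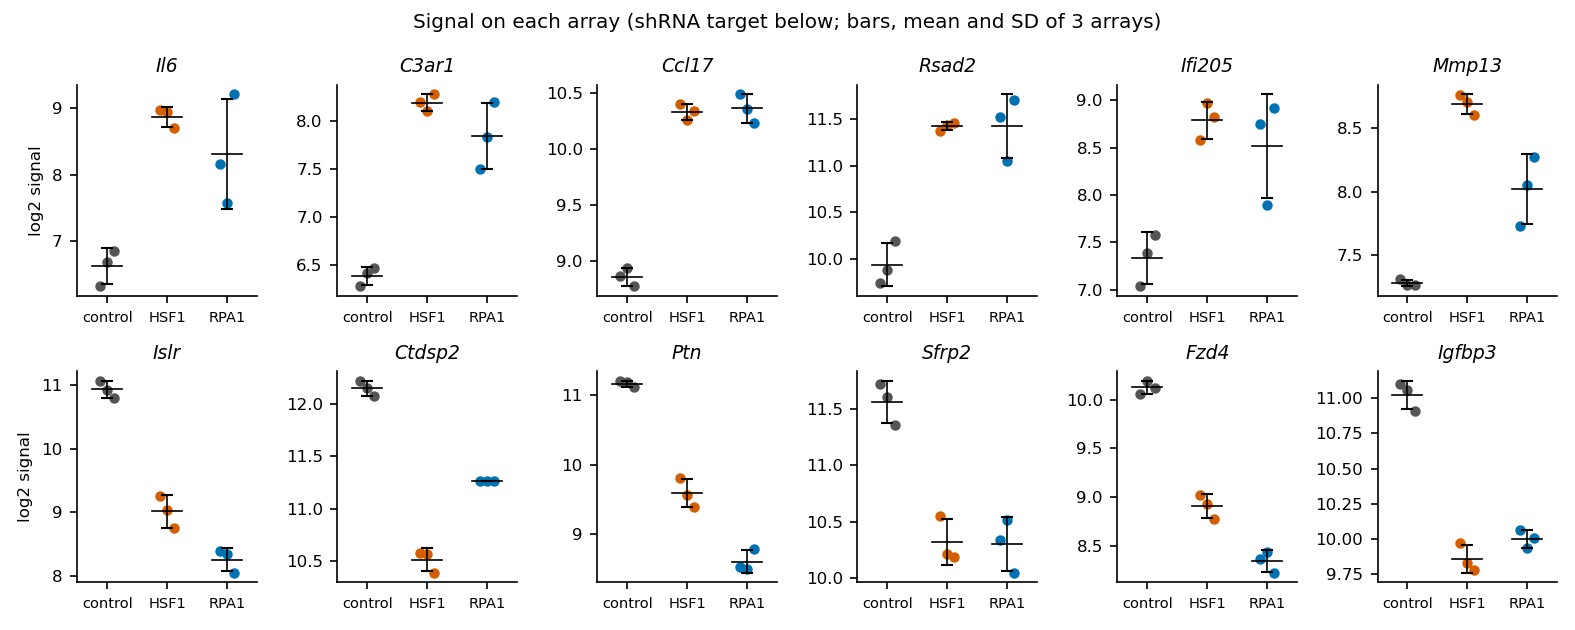
Dots are the log2 signals of single arrays for 6 genes that rose (upper row) and 6 that fell (lower row), with the mean and SD of the 3 arrays of each group; the y axes differ between panels. In all 12 genes the 3 HSF1 shRNA arrays lie on 1 side of the 3 controls, and for Il6 the RPA1 shRNA arrays spread from 7.58 to 9.21.

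The largest fall was that of Sncaip, the gene of the synuclein partner synphilin, which read 9.55, 9.57 and 9.48 in the control and 7.51, 7.27 and 7.05 with HSF1 shRNA (-2.26 ± 0.10, limma adjusted p = 1.4e-05). Ctdsp2, a phosphatase gene of the RNA polymerase II tail, read 12.22, 12.16 and 12.08 in the control, 10.58, 10.57 and 10.39 with HSF1 shRNA and 11.27, 11.27 and 11.27 with RPA1 shRNA, each group apart from the others (-1.64 ± 0.06 against control, adjusted p = 7.6e-06; -0.75 ± 0.06 against RPA1 shRNA, adjusted p = 0.00011). Ptn, which encodes the secreted growth factor pleiotrophin, fell from 11.20, 11.19 and 11.12 to 9.81, 9.57 and 9.40 (-1.58 ± 0.11, adjusted p = 6.8e-05). Ptprz1, which encodes a receptor of pleiotrophin, fell from 10.93, 10.84 and 10.97 to 9.67, 9.60 and 9.56 (-1.30 ± 0.12, adjusted p = 0.00021). In each of these 4 genes the groups did not overlap. The semaphorin receptor gene Plxna4 (-1.70 ± 0.15, adjusted p = 0.00019), the kinase gene Stk26 (-1.50 ± 0.17, adjusted p = 0.00052), the receptor gene Adcyap1r1 (-1.43 ± 0.09, adjusted p = 6.3e-05), the choline transporter-like gene Slc44a5 (-1.63 ± 0.11, adjusted p = 6.4e-05) and Rmnd5a, a ubiquitin ligase subunit gene (-1.41 ± 0.07, adjusted p = 2.1e-05), fell as well.

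Genes of connective tissue were among the falls. Of 19 elastic fibre and crosslinking genes 10 were lower and 1 higher (median -0.24). Ltbp2, a latent TGF-beta binding protein of microfibrils, read 10.31, 10.29 and 10.38 in the control and 9.42, 9.22 and 9.17 with HSF1 shRNA (-1.06 ± 0.08, limma adjusted p = 7.5e-05). Mfap4 fell by 0.93 ± 0.07 (adjusted p = 8.2e-05) and the fibrillin gene Fbn2 by 0.87 ± 0.11 (adjusted p = 0.0012), while the crosslinking enzyme gene Loxl4 rose by 0.37 ± 0.05 (adjusted p = 0.0019). The lower count was 6 without control replicate 1 or HSF1 shRNA replicate 2 and 5 without HSF1 shRNA replicate 3. Of 30 matricellular and adhesive glycoprotein genes 8 were lower and 2 higher. Islr, an immunoglobulin and leucine-rich repeat gene of stromal cells, fell from 11.06, 10.92 and 10.80 to 9.26, 9.04 and 8.75 (-1.91 ± 0.13, adjusted p = 6.8e-05), Abi3bp by 1.60 ± 0.11 (adjusted p = 6.8e-05) and Tnc, the gene of tenascin C, by 1.04 ± 0.07 (adjusted p = 6.3e-05). That lower count was 5 without control replicate 2 or HSF1 shRNA replicate 2 or 3.

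Among 44 collagen chains 8 were lower and 2 higher, with a median of 0.02. Col12a1, a fibril-associated collagen, fell by 0.95 ± 0.10 (limma adjusted p = 0.00042) and Col6a2 by 0.57 ± 0.11 (adjusted p = 0.0078). Of the 2 chains of type I collagen, Col1a1 stood at -0.07 ± 0.10 (adjusted p = 0.7) and Col1a2 fell by 0.51 ± 0.12 (adjusted p = 0.021), a call lost without any 1 of the control arrays or HSF1 shRNA replicate 2 or 3. The basement membrane genes Col4a1 (0.38 ± 0.05, adjusted p = 0.0012) and Col4a2 (0.22 ± 0.05, adjusted p = 0.011) were the higher members, and Col4a6 fell by 0.64 ± 0.05 (adjusted p = 0.00017). The lower count was 4 without control replicate 1 and 5 without control replicate 2 or HSF1 shRNA replicate 2 or 3, and 1 higher member was left without control replicate 3. Of 15 small leucine-rich proteoglycans, which organise collagen fibrils, Fmod (-1.19 ± 0.22, adjusted p = 0.0057), Ogn (-0.77 ± 0.16, adjusted p = 0.01) and Lum (-0.44 ± 0.12, adjusted p = 0.031) fell. The call of Lum was lost without control replicate 1 or 2 or HSF1 shRNA replicate 1 or 3, and 5 members were lower without RPA1 shRNA replicate 3, with array weights or with only the 6 arrays compared. The transglutaminase gene Tgm2, whose enzyme crosslinks matrix proteins, fell from 11.09, 11.01 and 10.75 to 9.70, 9.54 and 9.45 (-1.39 ± 0.10, adjusted p = 6.8e-05).

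In the Wnt system 10 of 54 ligands, receptors and antagonists were lower and 0 higher. Sfrp2, a secreted Wnt antagonist, read 11.73, 11.61 and 11.36 in the control, 10.55, 10.21 and 10.19 with HSF1 shRNA and 10.33, 10.52 and 10.05 with RPA1 shRNA (-1.25 ± 0.14, limma adjusted p = 0.00058). Its relative Sfrp1 fell by 1.06 ± 0.09 (adjusted p = 0.00012). The receptor gene Fzd4 read 10.06, 10.20 and 10.12 in the control, 9.02, 8.93 and 8.78 with HSF1 shRNA and 8.37, 8.44 and 8.22 with RPA1 shRNA (-1.22 ± 0.08, adjusted p = 6.4e-05), and the agonist gene Rspo1 fell by 1.00 ± 0.07 (adjusted p = 6.8e-05), so antagonists, a receptor and an agonist all fell. The median of the 54 was -0.01. Lower calls came to 16 without RPA1 shRNA replicate 3, with 1 higher, and 17 with array weights.

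Insulin-like growth factor genes gave 7 lower calls and 1 higher of 17 (median -0.16). The ligand gene Igf2 read 12.67, 12.51 and 12.46 in the control and 11.76, 11.54 and 11.44 with HSF1 shRNA (-0.97 ± 0.09, limma adjusted p = 0.00023). The binding protein genes Igfbp3 (-1.16 ± 0.07, adjusted p = 5.9e-05) and Igfbp4 (-0.91 ± 0.08, adjusted p = 0.00016) and the adaptor gene Irs2 (-0.58 ± 0.07, adjusted p = 0.00092) fell, and Igfbp5 rose by 0.23 ± 0.05 (adjusted p = 0.0094). A second higher member was called with the intensity trend and with array weights. In the PDGF and VEGF families 4 of 17 were higher and 4 lower. The receptor gene Pdgfra fell by 0.90 ± 0.07 (adjusted p = 0.00011), the ligand gene Vegfd rose by 0.87 ± 0.09 (adjusted p = 0.00039) and the VEGF receptor gene Flt1 by 0.65 ± 0.13 (adjusted p = 0.0083). The higher count was 7 without RPA1 shRNA replicate 3 and with array weights.

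Of 15 genes of the EGF family 5 were higher and 1 lower: Ereg rose by 1.03 ± 0.13 (limma adjusted p = 0.0011), Hbegf by 0.94 ± 0.19 (adjusted p = 0.01) and Tgfa by 0.51 ± 0.07 (adjusted p = 0.0013), while Egfr, the receptor, fell by 0.34 ± 0.08 (adjusted p = 0.014), a call lost without control replicate 3 or HSF1 shRNA replicate 3. Genes that ERK signalling induces as its own feedback gave 8 higher and 0 lower calls of 22 (median 0.24). The transcription factor gene Etv4 rose by 0.88 ± 0.10 (adjusted p = 0.00064), and the ERK phosphatase gene Dusp6 went from 10.55, 10.72 and 10.68 to 11.42, 11.33 and 11.35 (0.72 ± 0.09, adjusted p = 0.00089). Dusp1 rose by 0.84 ± 0.13 (adjusted p = 0.0026). A lower member was called without RPA1 shRNA replicate 2, with only the 6 arrays compared and after median scaling, and 2 without RPA1 shRNA replicate 3 and with array weights. Of 24 AP-1 and immediate early factors 7 were higher and 1 lower. Fosl1, the gene of the AP-1 subunit FRA1, read 9.61, 9.63 and 9.67 in the control, 10.80, 10.80 and 10.93 with HSF1 shRNA and 11.48, 11.46 and 11.59 with RPA1 shRNA (1.21 ± 0.06 against control, adjusted p = 1.6e-05), each group apart from the others. Maff rose by 0.84 ± 0.06 (adjusted p = 6.8e-05) and Mafk by 0.79 ± 0.06 (adjusted p = 0.00011). Egr1, the lower member (-0.36 ± 0.11, adjusted p = 0.046), lost its call without any 1 of the compared arrays or RPA1 shRNA replicate 1 and with the replicate block. There were 2 lower after each scaling, without RPA1 shRNA replicate 3 and with only the 6 arrays compared, and 3 with array weights.

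Of 19 glycolytic enzymes and transporters 11 were higher and 0 lower (median 0.21). Hk2, which encodes hexokinase 2, read 8.15, 8.32 and 8.22 in the control and 8.95, 9.07 and 8.99 with HSF1 shRNA (0.77 ± 0.11, limma adjusted p = 0.0019), Pfkp rose by 0.62 ± 0.06 (adjusted p = 0.00035) and the glucose transporter gene Slc2a1 by 0.52 ± 0.10 (adjusted p = 0.0068). The higher count was 7 without control replicate 3 or HSF1 shRNA replicate 3, and 1 member was lower after each scaling and with array weights. Of 31 ribosome biogenesis genes 15 were higher and 0 lower (median 0.23), with Tsr1 at 0.64 ± 0.11 (adjusted p = 0.0046), Nhp2 at 0.58 ± 0.07 (adjusted p = 0.00061) and Rrp9 at 0.54 ± 0.07 (adjusted p = 0.001), and 23 were higher without RPA1 shRNA replicate 3. The ribosomal protein genes themselves were not among them: of 61 cytosolic ones 0 were higher and 7 lower (11.5%). In the brightest bin of all genes 17.0% were called higher and 11.2% lower, and the median control signal of these 61 was 12.6. Their lower share was thus near that of bright genes. Their differences were small, such as that of Rps20 (-0.25 ± 0.05, adjusted p = 0.0056). Their lower count was 4 without control replicate 1 or 2, 3 without control replicate 3 or HSF1 shRNA replicate 3, and between 11 and 17 with only the 6 arrays compared, loess scaling, the intensity trend or array weights, and 1 was higher in the last 2 of these.

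Of 52 DNA replication genes 11 were lower and 0 higher (median -0.10), among them the DNA polymerase gene Pold1 (-0.50 ± 0.07, limma adjusted p = 0.0016), the ligase gene Lig1 (-0.43 ± 0.08, adjusted p = 0.0054) and the thymidine kinase gene Tk1 (-0.38 ± 0.07, adjusted p = 0.0075). The number called lower was 7 without any 1 of the control arrays or HSF1 shRNA replicate 2 or 3, 21 without RPA1 shRNA replicate 3 (2 higher), 18 to 19 after the scalings, 20 with only the 6 arrays compared and 22 with array weights (2 higher), and 1 was higher after quantile scaling. Of 30 clustered histone genes 12 were lower and 1 higher (median -0.20). H3c15 fell by 0.87 ± 0.15 (adjusted p = 0.0039) and the linker histone gene H1f1 by 0.66 ± 0.07 (adjusted p = 0.00045), whereas H2bc4 rose from 8.81, 9.09 and 9.06 to 10.16, 10.19 and 10.27 (1.22 ± 0.14, adjusted p = 0.00055). Clustered histone genes are close copies, so the signal of 1 member can include others. Lower members numbered 7 without HSF1 shRNA replicate 2 or 3, and 2 were higher without RPA1 shRNA replicate 2 or 3, with only the 6 arrays compared, with the intensity trend and with array weights.

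Of 22 subunits of the SWI/SNF chromatin remodeller 5 were lower and 1 higher. Smarca2, the gene of the ATPase BRM, read 10.99, 10.99 and 11.05 in the control and 10.55, 10.48 and 10.49 with HSF1 shRNA (-0.50 ± 0.05, limma adjusted p = 0.00041). Smarcd3 (-0.50 ± 0.09, adjusted p = 0.0046) and Phf10 (-0.46 ± 0.05, adjusted p = 0.00061) fell, and Actl6a rose by 0.41 ± 0.05 (adjusted p = 0.00057). Among 19 genes of the BCL2 family, which governs cell death at mitochondria, the death-promoting Bid (0.50 ± 0.07, adjusted p = 0.0014) and Bak1 (0.44 ± 0.06, adjusted p = 0.0015) rose and Bmf fell (-0.38 ± 0.08, adjusted p = 0.008), for 3 higher and 2 lower calls in all. These were 26.3% of the family, whose median control signal was 9.64, against 16.1% of all genes. In the second brightest of the 5 bins of all genes 14.9% were called higher and 11.1% lower. As families of other tissues, 1191 olfactory and vomeronasal receptor genes gave 9 higher and 4 lower calls, with a median of 0.02 and a median control signal of 5.41. Those counts were 3 or 4 higher without control replicate 3 or HSF1 shRNA replicate 1 or 2, 14 to 16 without HSF1 shRNA replicate 3 or RPA1 shRNA replicate 3 or with only the 6 arrays compared, and 31 higher and 18 lower with array weights. Lower ones were 1 without control replicate 2, 2 without control replicate 3 or HSF1 shRNA replicate 3, 7 without RPA1 shRNA replicate 3 and 9 to 11 after the scalings.

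**Figure D4:**
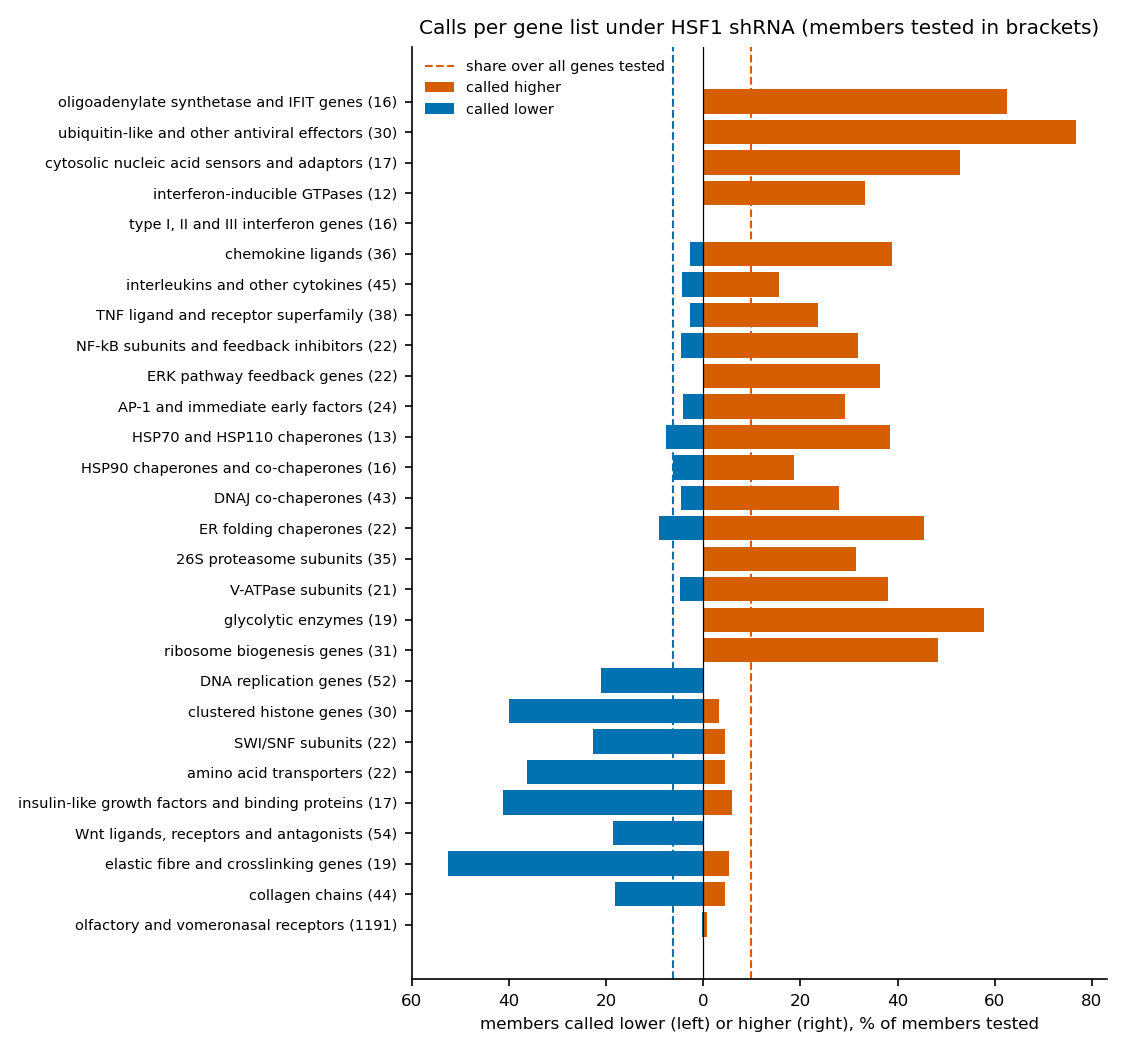
Bars give the share of each family's tested members called higher (right) or lower (left) with HSF1 shRNA; dashed lines mark the shares over all genes, 9.89% higher and 6.21% lower. Among the lists drawn, antiviral effectors have the longest bar to the right, with 23 of 30 higher, and elastic fibre genes the longest to the left, with 10 of 19 lower.

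HSF1 shRNA was compared with RPA1 shRNA to find which levels differed between the knockdowns; this contrast shares the HSF1 shRNA arrays, but no control array, with the comparison above. In it 4863 genes (24.4%) were called, 2928 higher and 1935 lower with HSF1 shRNA. The share of higher calls, 60.2%, was 51.4% after quantile or loess scaling and 47.6% after median scaling. Higher and lower calls numbered 1900 and 1328 without RPA1 shRNA replicate 1, 1899 and 1572 without HSF1 shRNA replicate 1 and 2264 and 1269 without HSF1 shRNA replicate 2, and 7926 genes were called with array weights.

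Some genes were lower with HSF1 shRNA than in either other group. Ubn1, a subunit of the HIRA complex that deposits histone H3.3, read 9.88, 9.90 and 9.87 in the control, 8.65, 8.47 and 8.56 with HSF1 shRNA and 10.36, 10.50 and 10.10 with RPA1 shRNA. The HSF1 shRNA arrays were the lowest and the RPA1 shRNA arrays the highest (-1.32 ± 0.09 against control, limma adjusted p = 6.8e-05; -1.76 ± 0.09 against RPA1 shRNA, adjusted p = 2.9e-05). Prps2, an enzyme of nucleotide synthesis, showed the same order, with 11.03, 11.13 and 11.03 in the control, 10.20, 10.08 and 9.97 with HSF1 shRNA and 11.29, 11.28 and 11.24 with RPA1 shRNA (-0.98 ± 0.06 and -1.19 ± 0.06, adjusted p = 6.5e-05 and 2.9e-05). Tor1b, an ATPase of the nuclear envelope and ER, read 10.28, 10.29 and 10.27 in the control, 9.34, 9.25 and 9.08 with HSF1 shRNA and 10.64, 10.79 and 10.42 with RPA1 shRNA (-1.06 ± 0.09 and -1.40 ± 0.09, adjusted p = 2e-04 and 6.1e-05). Cntfr, a cytokine receptor subunit gene, read 10.95, 10.81 and 10.74 in the control, 9.88, 9.81 and 9.77 with HSF1 shRNA and 10.81, 11.10 and 10.79 with RPA1 shRNA, so its control and RPA1 shRNA arrays overlapped and the HSF1 shRNA arrays stood apart (-1.01 ± 0.09 and -1.08 ± 0.09, adjusted p = 0.00019 and 1e-04). The vesicle traffic gene Tbc1d24, N4bp2 and Ahnak2 were lower than both groups as well, with differences from the control of -1.02 ± 0.15, -1.14 ± 0.09 and -0.84 ± 0.08 and from RPA1 shRNA of -1.25 ± 0.15, -0.91 ± 0.09 and -1.14 ± 0.08 (adjusted p = 0.00053, 2e-04 and 7.7e-05).

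Other genes were higher with HSF1 shRNA than in either other group. Lipg, which encodes endothelial lipase, read 7.49, 7.39 and 7.38 in the control, between 8.92 and 9.14 with HSF1 shRNA and 7.46, 7.31 and 7.70 with RPA1 shRNA (1.60 ± 0.10 against control, limma adjusted p = 5.9e-05; 1.53 ± 0.10 against RPA1 shRNA, adjusted p = 5.2e-05). Its control and RPA1 shRNA arrays overlapped. Nos2, the inducible nitric oxide synthase gene, read 8.14, 8.15 and 8.30 in the control, 9.52, 9.39 and 9.26 with HSF1 shRNA and 8.56, 8.39 and 8.53 with RPA1 shRNA (1.19 ± 0.08 and 0.90 ± 0.08, adjusted p = 6.6e-05 and 0.00013). Orm1, an acute-phase protein gene, read 7.33, 7.12 and 7.18 in the control, 8.22, 8.00 and 8.08 with HSF1 shRNA and 7.14, 7.35 and 6.98 with RPA1 shRNA (0.89 ± 0.10 and 0.94 ± 0.10, adjusted p = 0.00052 and 0.00029). Ly6f (1.09 ± 0.12 against RPA1 shRNA, adjusted p = 0.00037), the noncoding RNA gene Lncenc1 (0.85 ± 0.10, adjusted p = 4e-04), Itih2 (1.02 ± 0.18, adjusted p = 0.0035) and Sod3, the extracellular superoxide dismutase gene (1.28 ± 0.19, adjusted p = 0.0016), were higher than both. The Sod3 call against the control, at 0.85 ± 0.19 (adjusted p = 0.016), was lost without control replicate 1 or 3 or HSF1 shRNA replicate 2 or 3. Tor1aip2, whose product activates torsin ATPases in the ER, read 9.99, 10.21 and 10.13 in the control, 11.21, 11.20 and 11.30 with HSF1 shRNA and 10.10, 9.77 and 10.94 with RPA1 shRNA, with RPA1 shRNA replicate 3 nearer to the HSF1 shRNA arrays than the other RPA1 shRNA arrays were (1.12 ± 0.24 and 0.97 ± 0.24, adjusted p = 0.011 and 0.015).

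**Figure D5:**
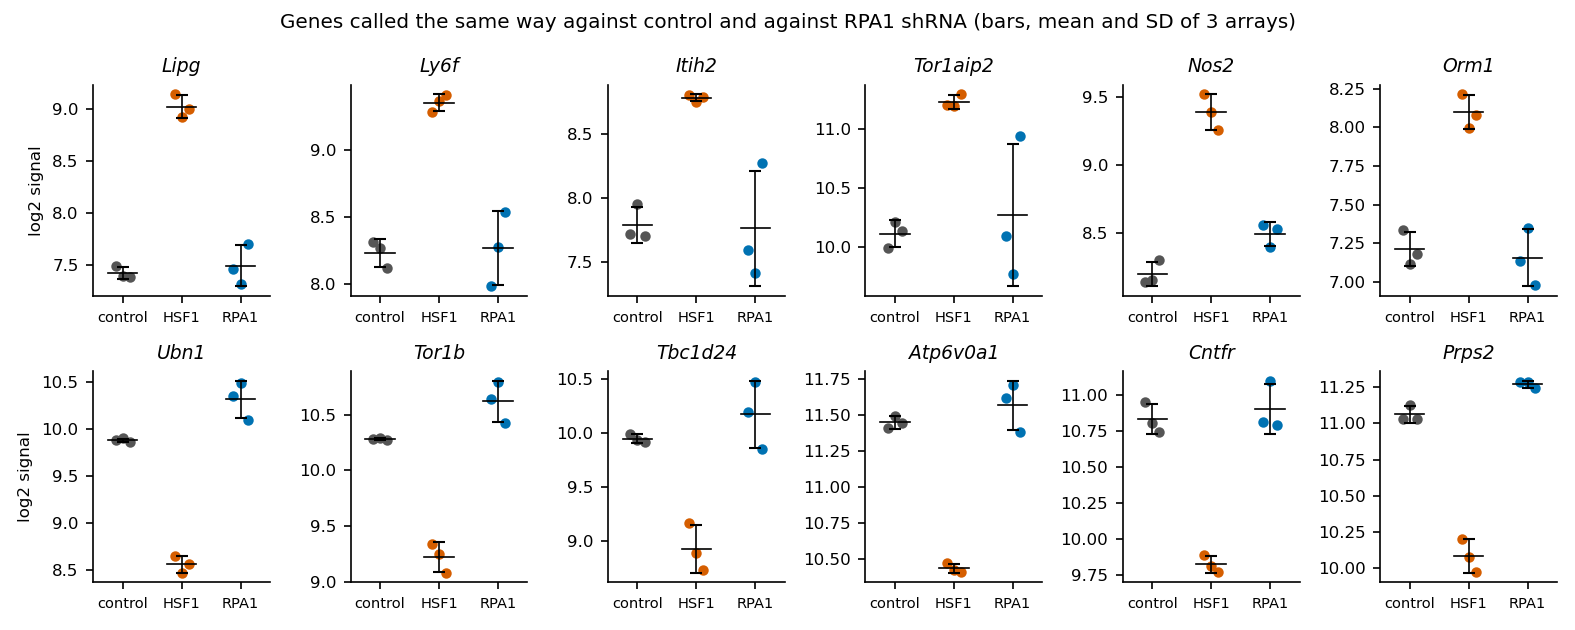
Dots are log2 signals of single arrays, with the mean and SD of each group of 3, for genes higher (upper row) or lower (lower row) with HSF1 shRNA than with both the scrambled control and RPA1 shRNA; the y axes differ between panels. For Ubn1 the HSF1 shRNA arrays lie between 8.47 and 8.65, below all 6 others, and for Lipg between 8.92 and 9.14, above all 6 others.

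For many of the largest changes the knockdowns were not told apart. Against RPA1 shRNA the difference of Rsad2 was 0.00 ± 0.16 (limma adjusted p = 1), that of Oas2 0.10 ± 0.12 (adjusted p = 0.64), that of Ccl17 -0.03 ± 0.07 (adjusted p = 0.82) and that of Sfrp2 0.02 ± 0.14 (adjusted p = 0.95). A p that misses the threshold does not show equal levels. For others the HSF1 shRNA arrays stood between the control and RPA1 shRNA. Sncaip read 6.52, 6.54 and 6.40 with RPA1 shRNA, below its HSF1 shRNA arrays (0.79 ± 0.10, adjusted p = 0.00071), and Ptn read 8.52, 8.50 and 8.79 (0.99 ± 0.11, adjusted p = 0.00033). Fmod read 11.28, 11.30 and 11.20 in the control, 10.27, 10.05 and 9.89 with HSF1 shRNA and 7.95, 8.03 and 8.90 with RPA1 shRNA (1.78 ± 0.22, adjusted p = 0.00056). Of the 122 chaperone genes in the 8 families, 31 (25.4%) were called against the control, 27 higher and 4 lower, against 16.1% of all genes. Most of these families are bright, and in the brightest bin of all genes 17.0% were called higher and 11.2% lower. Of the 31, 16 also passed against RPA1 shRNA, where 24.4% of all genes passed, and 14 of the 16 went in the same direction. Both contrasts use the same HSF1 shRNA arrays, so a gene called in the first is more likely to pass in the second, in the same direction. The share among all genes called against the control was not computed, so these counts show nothing particular to chaperones. Among the 16 were Ptges3 (-0.42 ± 0.06, adjusted p = 0.0015) and Hspa4l (0.75 ± 0.15, adjusted p = 0.0063), and Hsp90aa1 did not pass (-0.01 ± 0.05, adjusted p = 0.92). The rows kept for Ptges3 and Hsp90aa1 may read copies of these genes, as said above.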

How the data were processed

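RNA from 9 samples was hybridised to Affymetrix Mouse Gene 1.0 ST arrays, 200 ng for each. The deposited table held 1 column per array with RMA values made in Partek 6.5, per the submitters' processing notes. Its scale is not stated; the range of the deposited values was read as log2. The genome build of the table is not given in the sources used here, so no coordinates are printed for its rows; those of the promoter stretches are RefSeq's on GRCm38.p6. Of 35557 rows, 1621 had several gene symbols in the platform annotation and 12147 were not listed there; these were left out. For the 999 genes with more than 1 row, the row brightest on average was kept. No filter on dim genes and no further scaling were applied.

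All 9 arrays entered a fit with a mean for each group in limma 3.58.1 in R 4.3.3 (lmFit and eBayes, 6 residual and 3.51 prior degrees of freedom), so the RPA1 shRNA arrays contribute to the spread. P-values were adjusted by Benjamini-Hochberg over 19938 genes, and genes under 0.05 were called. The fit was tested on simulated data. The number of arrays limits the precision. The gene lists and their members, and the comparison itself, were chosen with earlier results of these data known. Named genes were Rpa1, the 25 largest called rises and falls without overlap between the groups, the 4 largest called changes of each list, called heat shock genes, and the 8 rises and 8 falls largest against both other groups. Genes named beyond that rule for a known role or as the only member moving in a direction (Cnpy2, Col4a1, Col4a2, Creld2, Csf1, Cxcl1, Cxcl9, Cxcl10, Cxcl11, Ddit3, Egfr, Egr1, Hspa5, Igfbp5, Irf2, Irf5, Loxl4, Rtp4, Slc3a1 and genes that were not called) were chosen after their values were seen. Alternatives changed the scaling, the dim-gene filter, the row per gene, the variance model, the array weights, the arrays fitted, the replicate number as a block, and left out each array.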

Additional observations from a re-analysis of the deposited data

How the results depend on the processing

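Of 386 differences of named genes, 288 stayed on their side of the threshold under every alternative run, 98 lost or gained the call under at least 1, and 0 changed direction. Apart from Rpa1 these genes were picked for called changes in the same data, mostly the largest. The share that held therefore does not describe called genes at large. With array weights 5313 genes were called against the control (3118 higher and 2195 lower) and 7926 against RPA1 shRNA (4627 higher and 3299 lower). With 1 array left out, the calls against the control ranged from 1953 to 4696, the higher ones from 1145 to 2869 and the lower ones from 706 to 1827. The calls against RPA1 shRNA ranged from 3228 to 6539, the higher ones from 1899 to 3760 and the lower ones from 1269 to 2779. With only the 6 arrays compared 4523 genes were called. Leaving out RPA1 shRNA replicate 3, whose mean correlation with its group was the lowest (0.9943), gave the most calls of the fits with 1 array left out, in both contrasts, and all 3210 calls were kept. Without 1 of the 6 compared arrays fewer of the 3210 were kept in the same direction. They numbered from 1919 without control replicate 3 to 2282 without HSF1 shRNA replicate 1. Dim genes were seldom called, and 3 arrays a group limit what small differences can pass.

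The groups share replicate numbers, but arrays with the same number did not deviate together: the correlations of control and HSF1 shRNA arrays of the same number were -0.127, 0.007 and 0.010, so the numbers were not taken as pairs. With the replicate block 2799 genes were called against the control (1691 higher and 1108 lower) and 4414 against RPA1 shRNA (2614 higher and 1800 lower).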

Other observations

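Sterol synthesis, antioxidant and clock genes also held called members. Of 23 sterol synthesis and SREBP genes 6 were higher and 0 lower, with Idi1 at 0.53 ± 0.05 and Msmo1 at 0.50 ± 0.10 (limma adjusted p = 0.00021 and 0.0073). The higher count was 11 with only the 6 arrays compared or array weights and 12 without RPA1 shRNA replicate 3, and 1 member was lower without HSF1 shRNA replicate 1 or with array weights. Of 21 targets of the antioxidant factor NRF2, 8 were higher, among them Pgd (0.48 ± 0.06, adjusted p = 0.001) and Srxn1 (0.39 ± 0.06, adjusted p = 0.0031). The cystine transporter gene Slc7a11 was lower (-0.32 ± 0.09, adjusted p = 0.038). These counts were 3 higher without control replicate 3 and 5 without control replicate 1 or HSF1 shRNA replicate 3. The call of Slc7a11 was lost without control replicate 2 or 3, HSF1 shRNA replicate 2 or 3 or RPA1 shRNA replicate 2 and with the replicate block. Of 17 clock genes 5 were higher, led by the repressor gene Bhlhe40 (0.57 ± 0.09, adjusted p = 0.0025), and 2 lower, led by Tef (-0.56 ± 0.10, adjusted p = 0.0062). The lower count was 1 without any 1 of the control arrays, HSF1 shRNA replicate 2 or 3 or RPA1 shRNA replicate 1 and with the replicate block. Ptgs2, the inducible cyclooxygenase gene, rose from 9.45, 9.60 and 9.52 to 10.62, 10.61 and 10.66 (1.11 ± 0.18, adjusted p = 0.0038).

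In the Notch and Hedgehog pathways 5 of 29 genes were lower and 2 higher. The Hedgehog co-receptor genes Boc and Gas1 fell, with differences of -1.03 ± 0.10 and -1.01 ± 0.10 (limma adjusted p = 0.00028 and 0.00037), and the receptor gene Notch2 read 11.55, 11.65 and 11.62 in the control and 10.81, 10.67 and 10.55 with HSF1 shRNA (-0.93 ± 0.07, adjusted p = 9.5e-05). Both higher calls were lost without control replicate 1 or 3 or any 1 of the HSF1 shRNA arrays, and without RPA1 shRNA replicate 3 there were 4 higher and 8 lower. Of 61 cadherins and protocadherins 10 were lower and 1 higher, with the giant cadherin gene Fat4 at -1.28 ± 0.13 (adjusted p = 0.00034). The lower count was 5 without control replicate 2 and 6 without control replicate 1 or HSF1 shRNA replicate 2 or 3, and the higher call was lost without control replicate 1 or 3 or any 1 of the HSF1 shRNA arrays and 3 were higher without RPA1 shRNA replicate 3. The complement genes C1s1 (-0.91 ± 0.14, adjusted p = 0.0023) and C1ra (-0.55 ± 0.10, adjusted p = 0.0051) fell. The cell cycle inhibitor gene Cdkn1b fell from 11.97, 11.93 and 11.94 to 11.20, 11.27 and 11.09 (-0.76 ± 0.07, adjusted p = 0.00024), and Ccnd1, the gene of cyclin D1, rose by 0.61 ± 0.09 (adjusted p = 0.0018).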
